A study of Mus musculus with 12 samples.

Results

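A group of 1920 long intergenic non-coding RNA (lincRNA) regions gave a signal well above background in each of 12 clones of mouse induced pluripotent stem (iPS) cells. They were chosen by the detection flag of the array software. A lincRNA feature, meaning 1 probe of the array design that reads 1 place on 1 strand, entered when it lay on chromosomes 1 to 19 except 8 and was flagged as well above background on all 12 arrays. This held for 4986 of the 14583 lincRNA features on these chromosomes, and their regions were 1920 of 3170. Over the whole array, 16181 of 55681 features belonged to lincRNA regions, of which there were 3540. The rule used how far the signals lay above background, so levels are described without a test, and only differences between clones were tested. A feature silent in 1 genotype could not enter.

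LincRNAs are transcribed from stretches between protein-coding genes, are often present at lower levels than messenger RNAs, and tend to differ more between cell types. In pluripotent cells several are known to take part in keeping the undifferentiated state or to bind regulators of chromatin. Here a region is known only by its place in the mouse genome (build mm9), as the array design gives it, with a suffix F or R that was taken as the strand read. The sources used here do not define the suffix. The probe sequences and a genome of that build were not used here, so no gene name is given to a region. Whether a region overlaps a known gene or another kind of RNA was not examined, and lincRNA is the label used for all of them.

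Aid, a cytidine deaminase, was intact (Aid+/+) in 2 series of 3 clones, 967B (clones 967B2, 967B4 and 967B6) and 979B (clones 979B1, 979B3 and 979B4). It was disrupted (Aid-/-) in another 2, called here the F series (clones 979F1, 979F2 and 979F3) and the E series (clones 981E1, 981E4 and 981E5). All were Nanog-GFP clones at passage 6, male, of mixed C57BL6, DBA and 129S4 background, made from embryonic fibroblasts with retroviral reprogramming factors, first kept on feeder cells and last on gelatin, and each was measured on 1 array. The series are read from the clone names. Slide 1 held the 967B arrays, slide 2 the F series, and slide 3 both 979B and the E series, so that slide 3 alone holds both genotypes, and between the series of a genotype, slide and series cannot be told apart.

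Across the array, 56.9 to 60.5% of features were well above background in a clone. The 2 features of Aid itself read its 3′ UTR, where the study attributes a signal in Aid-/- clones to a promoter of the inserted cassette, so they cannot check the labels by absence of a signal. They were 5.25 ± 0.43 and 5.80 ± 0.47 (log2 difference ± SE, n = 6 against 6) higher in Aid-/- clones (limma, adjusted p = 0.00104 for each), with no overlap between the genotypes. All 10 pluripotency markers examined were detected on every array. Of 8 fibroblast and feeder cell markers, 4 (Col1a1, Col1a2, Dcn and Thy1) were detected on every array and Lum on none, and of 8 markers of differentiated cells, 4 (Gata4, Gata6, Nes and Pax6) were detected on every array. None of the 30 features of these lists was called between the genotypes, while 1, of the differentiated list, was called between the clone series of a genotype. Their part in the results on lincRNAs was not tested. Clones 967B4 and 981E5 stood apart: 258 and 347 of the detected lincRNA features (5.17% and 6.96%) lay more than 2-fold from their median over the clones, against 51 to 116 in the other 10 clones. They also stood apart in features of accessioned transcripts, with 6.91% and 5.67%, against 0.44% to 1.8% in the other 10 clones.

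Detection differed between strands and chromosomes. Of features with the suffix R, 37.1% (2669 of 7202) were detected on every array, and of those with F, 31.4% (2317 of 7381). By chromosome the share ran from 27.2% on chromosome 9 (200 of 736) to 41.3% on chromosome 19 (133 of 322). The strands lay farthest apart on chromosome 16, with 47.4% of R features (126 of 266) and 23.6% of F features (74 of 313), and R was the higher on every chromosome but 3 and 17. Features that share a region share their source, so these shares were not tested. A further 5824 features were detected on no array and 3773 on 1 to 11 arrays.

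**Figure D1:**
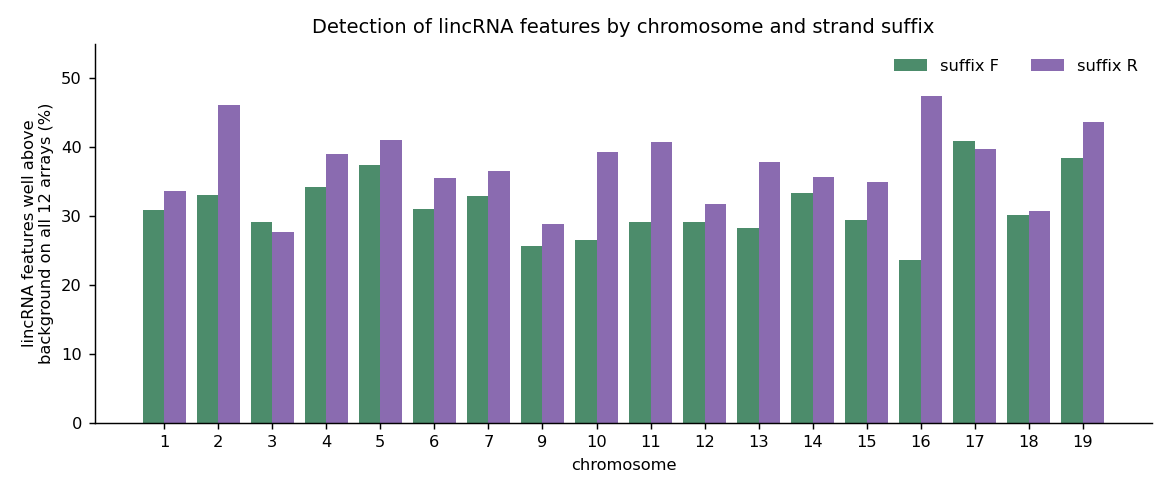
Share of lincRNA features (%) well above background on all 12 arrays, by chromosome (horizontal axis, chromosome 8 not used) and strand suffix (green F, purple R). Each bar is 1 share over the features of that chromosome and suffix. The widest gap is on chromosome 16, 23.6% for F and 47.4% for R.

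Within a region, detection often differed from place to place. Of the 3512 region strands with 2 or more features, 508 had all of them detected on every array, 1408 had none, and 1596 had some. Where a region carried features of both suffixes (970 regions), detected features lay on both in 450, on F alone in 158, on R alone in 214 and on neither in 148. Regions with at least 1 detected feature had a median length of 10701 bases, and those without had 2755 bases. The number of detected features in a region ran from 1, in 786 regions, to 17. Whether the lengths go with the number of features in a region was not tested. Of 2370 region strands with a detected feature, 927 overlap another on the same suffix, so regions are not all separate transcripts.

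Levels are given as log2 of the processed signal minus the 75th percentile of the array, so 0 is the signal below which 75% of features fall. Features bind with different strength, so levels of different features are a description of signals, not of RNA amounts. The median over the detected lincRNA features of the mean level in the clones was -2.17, with quartiles of -3.19 and -0.68. Among 18275 features of accessioned transcripts meeting the same flag rule, the median was 0.65. The share meeting that rule was 34.2% of the lincRNA features and 63.7% of the 28685 accessioned ones.

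The 6 brightest features were bright in every clone. A_30_P01026458 of chr11:22681800-22707775 (R) ran from 8.96 to 9.26 in Aid+/+ clones (median 9.08) and from 8.86 to 9.33 in Aid-/- clones (median 8.91). A_30_P01026091 and A_30_P01026611, both of chr6:116123643-116124550 (F), had means of 8.45 ± 0.16 and 8.41 ± 0.16 (SD, n = 12). The others were A_30_P01030669 of chr7:108209996-108216032 (R, 8.41 ± 0.14), A_30_P01021243 of chr17:48068261-48087905 (F, 8.37 ± 0.15) and A_30_P01020015 of chr17:39982023-39983277 (F, 8.29 ± 0.10). The genotypes overlapped for 5 of the 6. For A_30_P01021243 every Aid-/- clone lay below every Aid+/+ clone, by 0.23 on average, but none of the 6 was called (limma, adjusted p from 0.21 to 1.0). The bright feature of chr11:22681800-22707775 lies on R, and the 2 features of the same region on F had means of -3.11 and 2.06.

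At the other end, the dimmest signals just inside the rule belonged to A_30_P01017963 of chr1:193755364-193770539 (R), which fell to a processed signal of 13.4 in clone 979B3, and to A_30_P01025827 of chr2:48807211-48843911 (R), which fell to 13.7 in 967B4. Just outside, A_30_P01017739 of chr14:65874977-65880202 (R) and A_30_P01029826 of chr18:32389816-32394927 (F) were flagged on 11 arrays and missed the flag on 967B2, at signals of 23.4 and 23.2. These lie above the lowest signals of the features inside, which were read on other arrays. The lowest flagged signal of any feature was 5.74 on 967B2, against 3.09 to 3.85 on the other arrays. Why these features missed the flag was not tested. The features with 11 flagged arrays numbered 416.

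The steadiest features kept nearly the same level in all clones. A_30_P01023737 of chr13:21856097-21859200 (R) had a mean of 1.53 ± 0.05 (SD, n = 12), A_30_P01031448 of chr14:78924115-78938125 (F) 8.03 ± 0.06 and A_30_P01028779 of chr2:72818943-72826893 (R) 1.97 ± 0.06. Their neighbours were not all as steady. On the opposite strand of chr14:78924115-78938125, 3 of the 4 detected R features were called between the clone series of a genotype. The median SD over the clones was 0.28 for the detected lincRNA features and 0.25 for the accessioned features. In 4 groups of equal size by mean level it was 0.31, 0.30, 0.29 and 0.23 from dimmest to brightest.

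Features of 1 region and strand moved together from clone to clone. Over 5329 pairs of detected features with the same region and suffix, the median Pearson r over the 12 clones was 0.74, and 44.8% of pairs were over 0.8. Over 3180 pairs of the same region and opposite suffix it was 0.23, with 10.4% over 0.8. Over 736442 pairs from different regions of 1 chromosome it was 0.03, with 1.02% over 0.8. Each r rests on the same 12 arrays and on features that can lie in 1 transcript, so the values are a description. Where both features of a same-strand pair had an SD above the median, the median r was 0.93 (2166 pairs), against 0.49 for the other 3163. Within the 4 groups by level, it was 0.40 in the dimmest (360 pairs) and 0.80, 0.89 and 0.94 in the brighter ones.

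**Figure D2:**
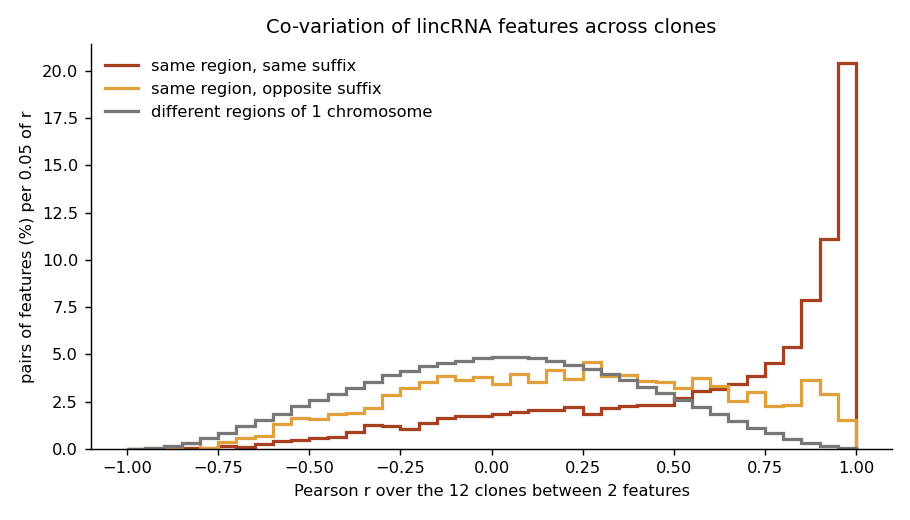
Pearson r over the 12 clones between 2 detected lincRNA features (horizontal axis) against the percent of pairs in each 0.05 step of r, for pairs of the same region and suffix (red), the same region and opposite suffix (orange) and different regions of 1 chromosome (grey). The red line peaks near 1 (median 0.74) and the grey line near 0 (median 0.03).

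The regions with the most detected features show both patterns. Chr5:74487385-74497428 had 17, with all 10 F features and 7 of 10 R features detected, and chr11:95627874-95640824 had 16. In the latter, all 9 F features and all 7 R features had a lower mean in Aid-/- clones, by 0.12 to 0.36 and by 0.16 to 0.27 on the log2 scale, with median pair correlations of 0.87 and 0.96, but none was called between the genotypes. Chr10:94900849-94928059 had 15, of which 4 of 9 on R were called between clone series. The other regions, with 14 each, were chr4:129497990-129515290, chr5:33174092-33200792 and chr17:35080914-35090009. All 10 F features of chr4:129497990-129515290 had a higher mean in Aid-/- clones, by 0.41 to 0.58, with a median pair correlation of 0.98. Of these 10, 9 were called between the E series and 979B on slide 3, and none between the genotypes over all clones. In chr17:35080914-35090009 the median pair correlation was 0.02 among its 7 F features and 0.54 among its 7 R features. The regions with the most detected features on both strands were among these, chr5:74487385-74497428, chr11:95627874-95640824 and chr17:35080914-35090009, with at least 7 on each.

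The comparison of the genotypes asks which lincRNA features differ between iPS clones made from cells with and without intact Aid. Of the 4986 features, 6 were called (limma, adjusted p under 0.05 over all 55681 features), 5 higher and 1 lower in Aid-/- clones. Over the whole array 0.0611% of features were called, and 0.12% of these. With a fold change over 2 asked as well, 2 of these and 0.0341% of the array remained. At an unadjusted p under 0.05 there were 894 (17.9%; 466 higher and 428 lower), beside 13.6% of the array and 19.4% of the accessioned features meeting the flag rule. The median difference was -0.03 on the log2 scale, against -0.07 for the accessioned features. Differences of more than 2-fold at any p were found for 26 features (0.52%; 20 higher and 6 lower), beside 2.62% of the array. The array share takes in features that did not meet the flag rule, so these shares are not like for like. All 6 Aid-/- clones lay above all 6 Aid+/+ clones for 79 of 4978 features with a value on every array (1.59%; array 0.698%), and below them for 68 (1.37%; array 1.48%).

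The first of the called features, A_30_P01030473, reads chr11:19950950-19962250 on R. Its level ran from -2.47 to -1.90 in Aid+/+ clones (median -2.12) and from -1.57 to -1.04 in Aid-/- clones (median -1.28). Every Aid-/- clone lay above every Aid+/+ clone, by 0.90 ± 0.12 on average (log2 ± SE, adjusted p = 0.0329 from limma). Its neighbour A_30_P01026917 on the same strand had a difference of 0.87 ± 0.17 (adjusted p = 0.0819). The 5 F features of the region were detected on no array.

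A_30_P01020677 of chr19:5771425-5848475 (F) ran from -2.50 to -1.83 (median -2.18) in Aid+/+ and from -1.41 to -0.80 (median -1.08) in Aid-/- clones. The genotypes did not overlap and differed by 1.06 ± 0.15 (adjusted p = 0.0368 from limma), a 2.09-fold change. The region spans 9 detected F features, and their differences ran from -0.09 to 1.06, with 5 of them at an unadjusted p under 0.05. A_30_P01019135 came next at 0.93 ± 0.18 (adjusted p = 0.0778). The brightest of the 9, A_30_P01020769, differed by -0.03 ± 0.08, so the difference was not shared by all places in the region.

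A_30_P01030806 of chr16:91198576-91199149 (F) had the largest fold of the called features, 2.32. It ran from -3.63 to -2.74 (median -3.17) in Aid+/+ clones and from -2.48 to -1.68 (median -1.89) in Aid-/- clones, without overlap, a difference of 1.21 ± 0.18 (adjusted p = 0.0447 from limma). The region's other detected features differed by 0.85 ± 0.21 (A_30_P01025638) and 0.19 ± 0.13 (A_30_P01018147), and neither was called. This feature and A_30_P01020677 are also in the list of changed features that the study drew from these same arrays, which is no independent evidence.

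A_30_P01031051 of chr5:33174092-33200792 (R) ran from -3.02 to -2.54 in Aid+/+ and from -2.17 to -2.01 in Aid-/- clones, a difference of 0.67 ± 0.09 (adjusted p = 0.0368 from limma). Of the 9 detected R features of this region, 5 had differences between 0.63 and 0.92 and the other 4 between -0.24 and -0.07. The 5 include A_30_P01017775, at 0.70 ± 0.12 (adjusted p = 0.0523). On F the 5 detected features differed by -0.15 to 0.27. The features of this strand thus fell into 2 sets by their difference, and the median pair correlation of the 9 was -0.24.

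A_30_P01027238 of chr17:46972160-46997919 (R) had a narrow spread in both genotypes, from -2.85 to -2.71 in Aid+/+ and from -2.35 to -2.12 in Aid-/- clones, a difference of 0.49 ± 0.07 (adjusted p = 0.0399 from limma). The brighter A_30_P01029719 of the same strand differed by 0.58 ± 0.10 (adjusted p = 0.0523). All 6 detected R features had a higher mean in Aid-/- clones, from 0.08 to 0.58, while the 5 on F had differences of -0.12 to 0.19.

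The feature that fell was A_30_P01027361 of chr6:135294099-135300310 (F). It ran from 0.11 to 0.46 in Aid+/+ and from -0.41 to -0.06 in Aid-/- clones, a difference of -0.61 ± 0.09 (adjusted p = 0.049 from limma). The 3 other F features differed by -0.36 to -0.11 and the single R feature, A_30_P01019772, by -0.41 ± 0.09 (adjusted p = 0.1), so all 5 had a lower mean in Aid-/- clones.

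**Figure D3:**
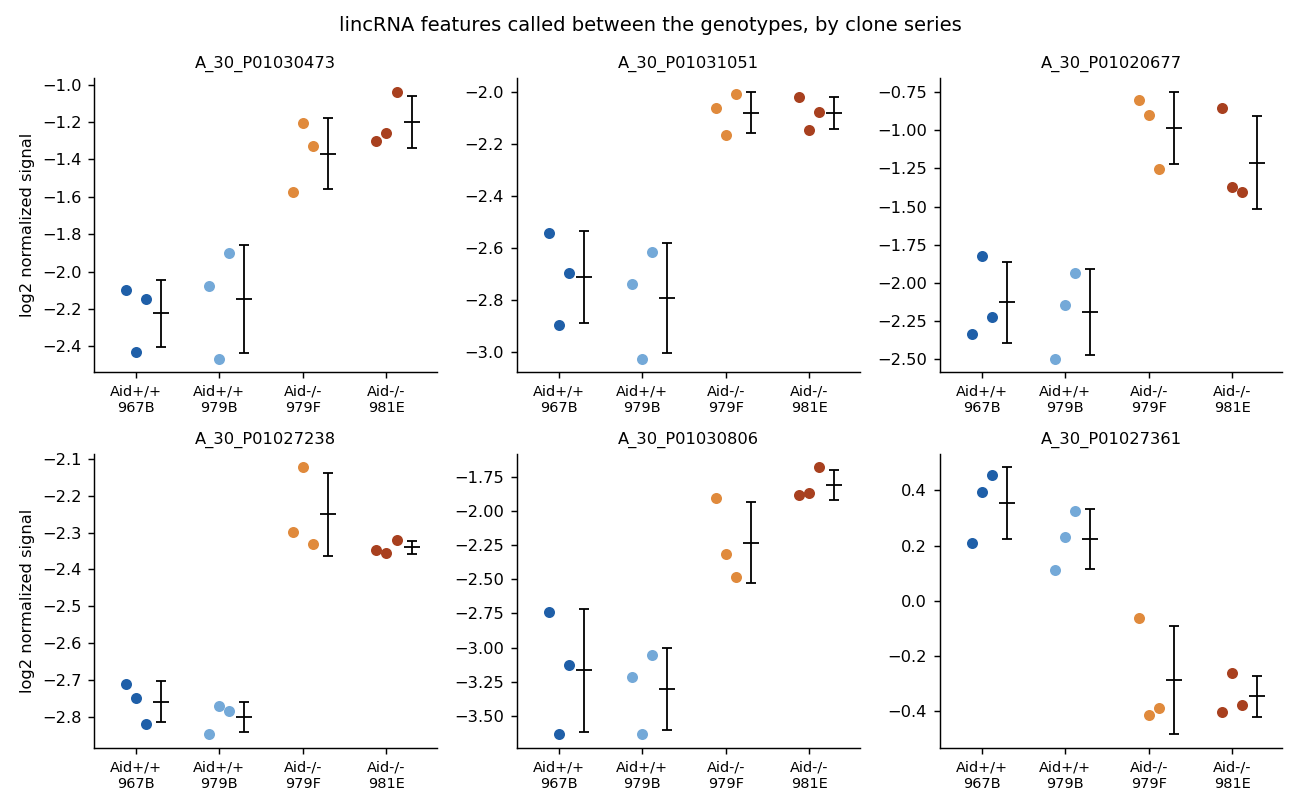
Log2 normalized signal (vertical axis, a scale of its own in each panel) of the 6 lincRNA features called between the genotypes, for the 3 clones of each series (points, blue Aid+/+, orange and red Aid-/-), with the mean and SD of the series in black. In each panel the 6 Aid-/- clones lie on 1 side of the 6 Aid+/+ clones, above them in 5 panels and below them for A_30_P01027361.

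Within slide 3, where both genotypes lie side by side, all 6 were called in the same direction (E series against 979B, adjusted p from 0.0114 to 0.0415 from limma), but these 6 arrays are among the 12 on which the features were called. The F series against 979B called 2 of the 6, A_30_P01020677 and A_30_P01027238 (adjusted p = 0.0463 for each, from 0.055 to 0.12 for the others), and the E series against 967B called none (adjusted p from 0.062 to 0.135 from limma), with the same directions throughout. With the clone series as a random block none was called, with adjusted p from 0.0774 to 0.106, and with the slide as a random block 1 was. The count also rests on single clones: 0 features were called without 967B6, 979F2, 979B1, 981E1 or 981E4, 1 without 979F1, 979F3 or 979B4, and 2 without 979B3.

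Clones of 1 genotype were compared by series. Between the 2 series of a genotype, 277 features of 170 regions were called (limma F-test of 979B against 967B and the F series against the E series together), 5.56% of the detected lincRNA features, beside 2.99% of the array and 3.92% of the accessioned features meeting the flag rule. Series and slide cannot be told apart here. Taken singly, the contrast of the Aid+/+ series called 56 features (1.12%; array 0.711%), 19 higher and 37 lower in 979B. Without 967B4 that contrast called 206, 106 higher and 100 lower, and with normexp background correction 42 higher and 50 lower. It called 96 without 981E5, and 30, 17, 32, 36, 29, 20 and 33 without 967B2, 967B6, 979F2, 979F3, 979B1, 979B3 and 979B4 in turn. The contrast of the Aid-/- series called 240 (4.81%; array 3.02%), 109 higher and 131 lower in the F series. It called 466 without 967B4 and 23 without 979F3, of which 16 were higher and 7 lower. Without 967B6, 979F1, 979F2, 979B3, 981E4 and 981E5 in turn it called 159, 70, 37, 139, 127 and 59. Both contrasts called 18 features of 13 regions, which are 32.1% of the first list and 7.5% of the second. The share called in both was not counted over the array or the accessioned features. The joint test gave 162, 579, 120, 120, 88, 78, 156, 115, 171, 169 and 172 features without 967B2, 967B4, 967B6, 979F1, 979F2, 979F3, 979B1, 979B3, 979B4, 981E4 and 981E5 in turn.

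A_30_P01019428 of chr5:139225387-139230837 (F) had the smallest p. Its levels were -3.62, -4.05 and -4.01 in 967B, and -0.86, -0.85 and -0.79 in 979B. The difference of 3.06 ± 0.20 within Aid+/+ (adjusted p = 0.000224 from limma) was many times the spread inside a series. In Aid-/- clones it was -0.87, -1.43 and -1.59 in the F series and -2.63, -2.21 and -2.40 in the E series, a difference of 1.12 ± 0.20 (adjusted p = 0.0223). The other detected feature of the region was not called for the series.

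A_30_P01027102 of chr2:175432867-175469471 (R) lay at -3.61, -3.64 and -3.60 in 967B and at -2.93, -2.76 and -2.79 in 979B. In Aid-/- clones it lay at -2.32, -2.29 and -2.16 in the F series and at -3.18, -3.22 and -3.16 in the E series. The series did not overlap, and both 979 series were the higher (0.79 and 0.93, adjusted p = 0.00697 and 0.00229 from limma). Both detected features of this region were called, with a pair correlation of 0.97.

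The 979 series were also the higher of both genotypes for A_30_P01033353 of chr13:67932042-67944229 (F), with differences of 1.08 ± 0.16 in Aid+/+ and 1.61 ± 0.16 in Aid-/- clones (adjusted p = 0.0172 and 0.00162 from limma). So they were for A_30_P01031331 of chr2:168812065-168812873 (F), with 1.05 and 0.93 (adjusted p = 0.00605 and 0.00901). In these regions 1 of 1 and 2 of 3 detected features were called for the series.

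A_30_P01024373 of chr15:51829797-51844247 (F) had a wide gap between the Aid-/- series. It was -4.50, -4.22 and -4.90 in the F series and -1.77, -1.67 and -0.65 in the E series, a difference of -3.18 ± 0.28 (adjusted p = 0.000886 from limma). The Aid+/+ series lay between them, at means of -2.47 (967B) and -3.62 (979B), and did not pass the test (adjusted p = 0.122). Its neighbours A_30_P01027521 and A_30_P01030931 were not called, and the median pair correlation of the 3 was -0.54.

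**Figure D4:**
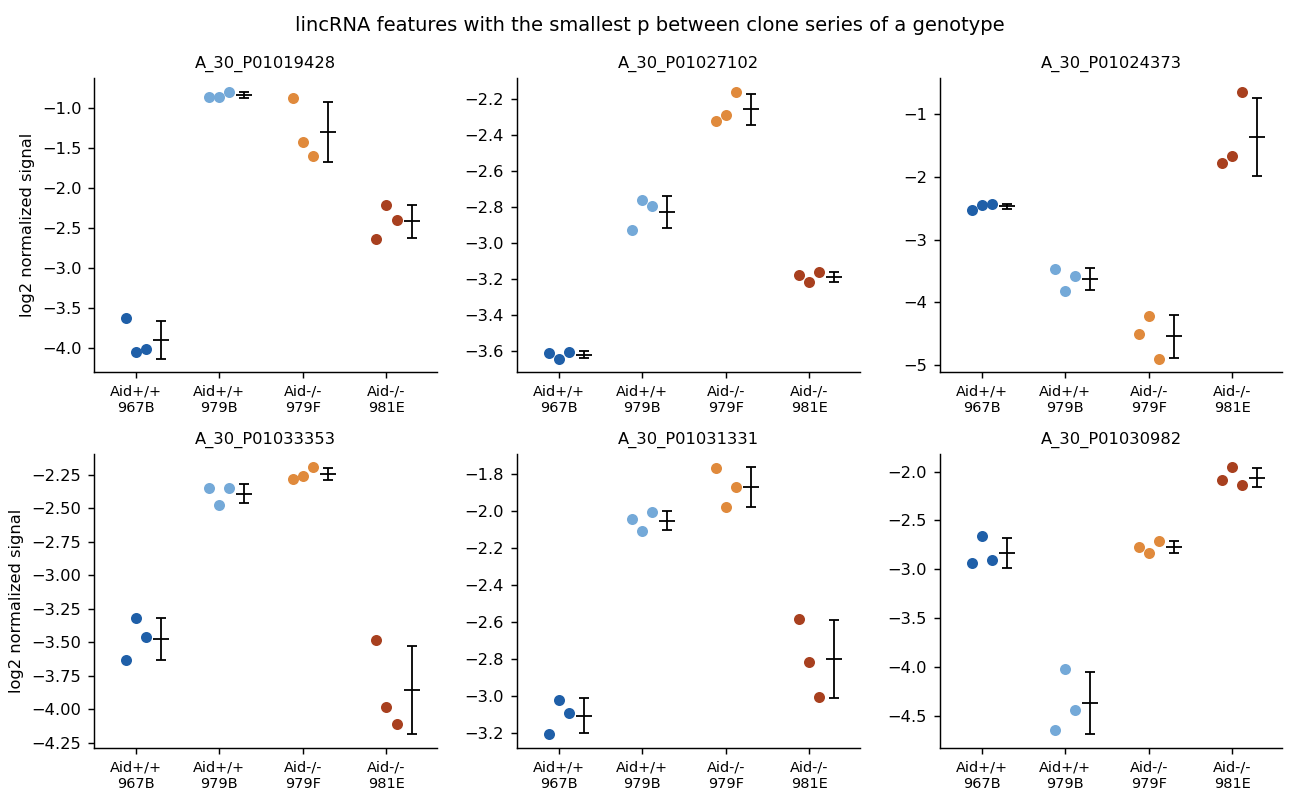
Log2 normalized signal (vertical axis, a scale of its own in each panel) of the 6 lincRNA features with the smallest p between the clone series of a genotype, for the 3 clones of each series (points), with the mean and SD of the series in black. In 4 panels both 979 series lie above 967B and the E series, and in those of A_30_P01024373 and A_30_P01030982 each lies below the other series of its own genotype.

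Among the 277 features, the 979 series of both genotypes were higher than their counterparts for 94 and lower for 143, so that 85.6% had 1 sign in the 2 genotypes. The share was 59.2% over all 4986 features, and 81.2% of the called and 56.0% of all accessioned features meeting the flag rule. The 2 contrasts share no clone, but the study lists an experiment 979 with clones of both genotypes, the number that both 979 series carry. Whether the shared experiment bears on the signs was not tested. All 18 features called in both had 1 sign, but the like count for the array or the accessioned features was not made. The 3 detected features of chr3:145313275-145315057 (F) are an example chosen after the values were seen: 979B lay below 967B by 1.68 to 1.96 and the F series below the E series by 1.68 to 1.96, and all 3 were called in both genotypes. Opposite signs were found for the 3 features of chr13:3497296-3500441 (F), where 979B lay above 967B by 1.12 to 1.35 and the F series below the E series by 0.40 to 0.56.

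Where a region strand had 2 or more detected features and at least 1 called (142 strands), 62 had 2 or more called. In 30 strands, 3 or more were called, which took in 102 of the 277 features. All 5 detected R features of chr13:62734450-62785325 were called, and all 5 F features of chr2:153163620-153170845. The former were higher in 979B than in 967B by 0.71 to 0.82 and higher in the F series than in the E series by 0.58 to 0.78, and the latter lower by 0.51 to 0.91 and by 0.91 to 1.44. These strands, too, were picked after their values were seen. By chromosome the called share ran from 1.5% on chromosome 19 (2 of 133) to 11.3% on chromosome 13 (35 of 309). Many of the latter share a few places: besides the 5 above, 4, 4 and 3 lay on R in the neighbouring chr13:74642700-74701900, chr13:74712775-74728450 and chr13:74738675-74756950. The shares by chromosome were not tested or set beside accessioned features. By suffix it was 4.79% for F and 6.22% for R.

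The largest median share of the variation of the detected lincRNA features lay between clones of 1 series, which also hold most of the degrees of freedom. Of the sum of squares over the 12 clones, the median share was 11% between the genotypes, 25.4% between the series of a genotype and 52.4% between clones of a series. By the degrees of freedom alone the mean shares would be 9.09%, 18.2% and 72.7%. These are means and not medians, so the median shares cannot be read directly against them. For the accessioned features meeting the flag rule, the median shares were 12.3%, 27.3% and 49.1%. The series took over 50% of the sum of squares for 1017 features (20.4%; accessioned features 21.3%), and the genotype for 366 (7.35%; accessioned features 8.78%). Chromosomes did not stand apart as a whole: the median shift of a chromosome's features in a clone, relative to all detected lincRNA features of that clone, ran from -0.07 to 0.09.

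On slide 3, Aid-/- clones of the E series and Aid+/+ clones of 979B can be compared within 1 slide, though each genotype is then 1 series. The test called 264 features of 142 regions higher in the E series (5.29%), beside 2.28% of the array and 2.57% of the accessioned features meeting the flag rule. It called 119 of 75 regions lower (2.39%), beside 1.85% and 3.17%. More were higher than lower in the E series, the reverse of the accessioned features, but the median difference was -0.03. The split moved with the scaling, from 264 and 119 to 298 and 91 with the percentile taken over detected features and to 270 and 200 with another background correction. Without 981E5, in which 259 of its 347 features far from the median were high, 110 and 56 were called, and without 967B4, on slide 1, 402 and 264. Leaving out 979B1, 979B3, 979B4, 979F2 or 979F3 gave 155, 100, 170, 252 and 253 in all.

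The smallest p-values on slide 3 lay in a pair of neighbouring regions of chromosome 17. A_30_P01030657 of chr17:22335458-22466521 (R) was at -4.30, -3.36 and -4.0 in 979B and at -0.78, -0.64 and -0.70 in the E series, a difference of 3.18 ± 0.24 (adjusted p = 0.000327 from limma). The 967B clones, at -1.64, -1.23 and -1.99, and the F series, at -1.70, -1.80 and -1.73, lay between them and overlapped. The other features of the region differed by 2.47 ± 0.19 (A_30_P01020914, adjusted p = 0.000349) and 2.27 (A_30_P01027624), and the pair correlations had a median of 0.98. A_30_P01030982 of chr17:22013350-22095775 (R) was at -4.65, -4.02 and -4.44 in 979B and at -2.09, -1.96 and -2.14 in the E series, a difference of 2.31 ± 0.16 (adjusted p = 0.000163). Of the other R features of that region, A_30_P01025352 differed by 1.04 (adjusted p = 0.0059) and A_30_P01018066 by 0.16 (adjusted p = 0.965).

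The genotype difference was also compared between the clones named 979 (the F series against 979B) and the others (E series against 967B), with the interaction of both. Each comparison sets 1 series against 1 series of another slide, so genotype, series and slide cannot be told apart in it. Of the detected lincRNA features, 10 of 8 regions were called (limma, adjusted p under 0.05, 0.201%), beside 0.106% of the array. In all 10 the difference had opposite signs in the 2 comparisons, although for A_30_P01033172 it was close to 0 in 1 of them (-1.49 and 0.02). A call for a large interaction itself favours opposite signs, so these signs are no separate result. The count is 16 without 967B4 and otherwise 0 to 6 when 1 clone is left out: 6 without 981E1, 4 without 981E5, 3 without 979F1, 2 without 979B3, 1 without 967B2, 979F2, 979B1, 979B4 or 981E4, and 0 without 967B6 or 979F3.

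A_30_P01020885 of chr13:3497296-3500441 (F) was at -2.51, -2.83 and -2.65 in 967B and -1.96, -2.14 and -2.18 in the E series, and at -1.62, -1.25 and -1.48 in 979B and -2.44, -2.82 and -2.69 in the F series. Aid-/- clones were 1.20 lower among the 979 clones and 0.57 higher among the others, an interaction of -1.77 ± 0.21 (adjusted p = 0.0184 from limma). A_30_P01024415 of chr17:15132576-15147002 (R) and A_30_P01027464 of the neighbouring chr17:15100982-15115630 (R) had interactions of 1.90 ± 0.24 and 2.10 ± 0.27 (adjusted p = 0.0248 and 0.0261). The former was at 0.38, 0.44 and 0.37 in the F series, above all other clones, and at -0.87, -1.01 and -1.46 in the E series. The 3 features of chr17:15100982-15115630 had a median pair correlation of 0.96, and all 3 were called between the Aid-/- series.

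**Figure D5:**
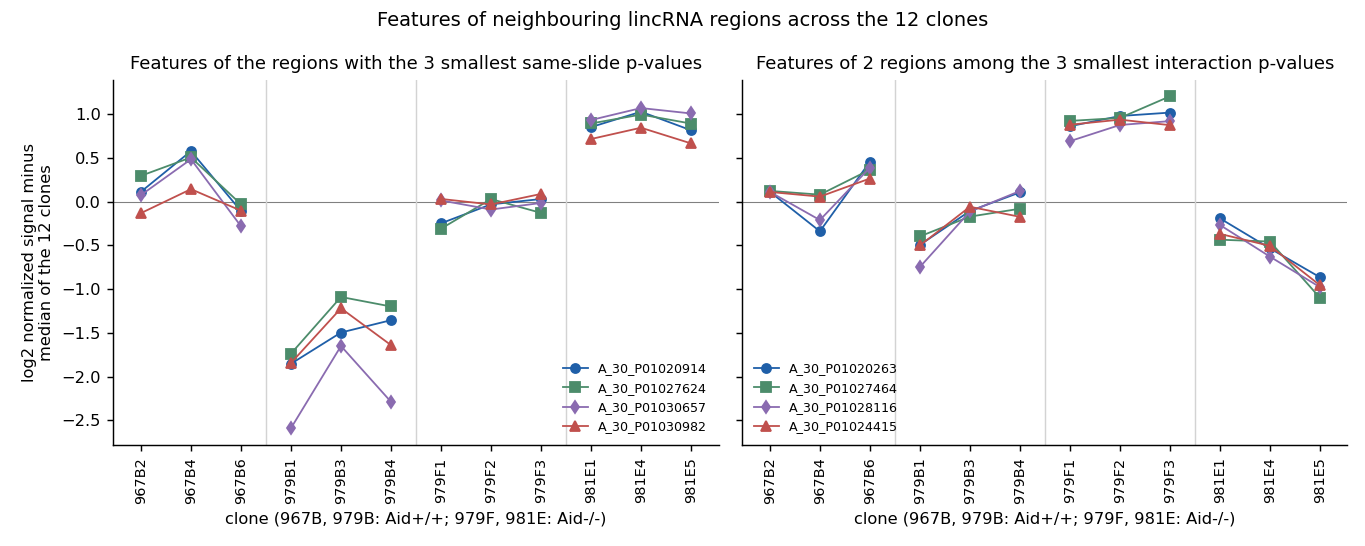
Log2 normalized signal minus the median of the 12 clones (vertical axis) for features of neighbouring lincRNA regions of chromosome 17, by clone (horizontal axis, grey lines between series). On the left, 4 features with large differences on slide 3 are lowest in the 979B clones and highest in the E series, and on the right, 4 features of chr17:15100982-15115630 and chr17:15132576-15147002 are highest in the F series.

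The remaining called features were 3 of chr5:23195569-23218551 (R) and 1 each of chr2:174088550-174109425 (F), chr4:124127144-124334840 (R), chr5:139225387-139230837 (F) and chr10:94900849-94928059 (R). For A_30_P01023802 of chr5:23195569-23218551 the E series alone was low, at 2.39, 2.27 and 2.32, against 3.19 to 3.81 in the other 9. For A_30_P01033172 of chr2:174088550-174109425 the 979B clones alone were high, at -1.33, -1.39 and -1.55, against -3.09 to -2.60 in the rest.

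Named non-coding RNA genes with an accession give a view beside the unnamed regions. Whether any of these genes lie inside the regions was not examined, so the 2 sets need not be distinct. Of 38 such genes, 23 had a feature on the array matched by accession, and 19 of them were detected on every array, among them Malat1 and Neat1, nuclear RNAs, Tug1, Pvt1, and the small nucleolar RNA hosts Snhg1, Snhg3, Snhg5, Snhg6 and Snhg12. Jpx and Xist, genes of X inactivation, were detected on none. Of their 35 features none was called between the genotypes and 2 were called between the clone series of a genotype.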

How the data were processed

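The authors hybridised Cy3-labelled total RNA of each clone to a mouse Agilent array and deposited the scanner output of Feature Extraction 10.7.3.1, whose processed intensity is corrected for background but not normalized between arrays. The authors also deposited log2 values scaled to the 75th percentile, which served as an alternative setting. Here the intensities were put on the log2 scale, without control and outlier spots, and scaled by subtracting each array's 75th percentile. Features were tested in limma 3.58.1 (R 4.3.3, lmFit and eBayes) over all 55681 features with Benjamini-Hochberg adjustment, the genotypes without a covariate and the series contrasts with a mean per series. Of the detected lincRNA features, 8 lack a value on some array after outlier spots were left out. Correlations and plots used Python 3.11.15, numpy 2.4.6, pandas 2.3.3 and matplotlib 3.10.9.

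Gene names came from accessions through a RefSeq table of assembly GRCm38.p6 (27235 of 28685 matched), a build other than the array's mm9, so it gave no coordinates. The number of arrays limits the precision, and p-values measure the spread between clones. The study checked the independence of its clones by their retroviral integration pattern. Its list of clones with like patterns names 967B2, 981E1 and 981E4, read here as belonging to separate pairs. The named features are the 6 called between the genotypes, the 6 brightest, 2 on each side of the detection rule, the 6 with the smallest p between series, 3 each for slide 3 and the interaction, the 3 steadiest, those in the list of changed features of the study, and the regions with the most detected features. The members, the gene lists and the rule were chosen with earlier results of these data known. Methods were tested on simulated data. The noise there was independent and the genotype test held no difference between series, so it cannot show how series affect the genotype calls. Alternatives were other scalings, background correction, filters, blocks, thresholds and the methods' t-test, and leaving out each clone.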

Additional observations from a re-analysis of the deposited data

Results flagged for a closer look

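Of 60 groups of 6 clones examined (the named features in each genotype), 5 held a clone far from the other 5, where chance gives about 1 in 20. In Aid-/- clones, A_30_P01027238 was at -2.12 in 979F2 against -2.36 to -2.30 in the others. A_30_P01017963 was at -3.97 in 979F2 against -4.25 to -4.15. A_30_P01026458 was at 9.33 in 981E5 against 8.86 to 8.98, and A_30_P01021243 at 8.04 in 981E4 against 8.25 to 8.34. In Aid+/+ clones, A_30_P01023737 was at 1.48 in 967B2 against 1.55 to 1.58.

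The difference between Aid-/- and Aid+/+ series was not the same in the clones named 979 and the others, by the interaction term of limma, for 4 named features. Genotype, series and slide cannot be told apart in that term. The interaction (log2) was -1.94 for A_30_P01019428, -1.77 for A_30_P01020885, 1.90 for A_30_P01024415 and 2.10 for A_30_P01027464.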

How the results depend on the processing

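No paired analysis was possible because the clone numbers of the 2 genotypes do not mark shared samples. The number of features called between the genotypes, 6, was 11 with the percentile over detected features, 22 with quantile normalization, 54 with normexp, 21 and 98 with only features detected on at least 1 or on all 12 arrays, 28 with an intensity trend and robust estimation, 44 with the methods' t-test, 67 at an adjusted p under 0.1 and 2 with a fold change over 2. It was 383 with the slide as a fixed block, which by construction compares the E series with 979B, 1 with the slide and 0 with the clone series as a random block, 2 without both 967B4 and 981E5 (chosen after seeing the data), and 0 to 7 when 1 clone was left out. The features called between series, 277, were 645 among features detected on all 12 arrays (fewer features tested), 554 without 967B4 and 981E5, and 78 to 579 without 1 clone. On slide 3, the 383 became 716 among features detected on all arrays and 100 to 666 without 1 clone. The 10 interactions became 16 with quantile normalization, 19 with normexp, 28 among features detected on all arrays and 0 to 16 without 1 clone. Where no construction is named, the cause was not tested. By the flag for a positive and significant signal, 7489 features would have been chosen instead of 4986. Of the 24 differences recomputed (those of the 6 features called between the genotypes, the 6 with the smallest p between series in both genotypes, and 3 each for slide 3 and the interaction), 0 reversed. With normexp background correction 19 were smaller by over 1.5 times and the ratio ran from 1.12 to 2.81. Among them, A_30_P01030806 went from 1.21 to 0.61 between the genotypes, A_30_P01019428 from 3.06 to 1.74 between the Aid+/+ series and A_30_P01030982 from 2.31 to 0.99 on slide 3. By 4 groups of equal size from dimmest to brightest, 38, 96, 74 and 69 features were called between series.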
